A study of Homo sapiens with 4 samples.

Results

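The genes described here encode the core of the spliceosome and the hnRNP proteins that coat new transcripts, 50 genes named by symbol. They were read from the sense-strand entries of the 4 deposited tables, out of 57427 genes with such an entry, and all 50 were among the 21238 genes that passed the filter on low counts. Bru-seq, which captures RNA that has taken up the uridine analogue bromouridine, was used to measure RNA made during a 30 min label. The cells were U2OS, a human osteosarcoma line, and in both groups they stably overexpressed GFP-DCP1a, a tagged cofactor of mRNA decapping, under G418 selection. The hypertonic group was in growth medium brought to 300 mM sodium with concentrated saline buffer. The isotonic group was in growth medium at 150 mM sodium, to which an equal volume of plain saline buffer had been added. Each group had 2 libraries. The labels do not state the length of the exposure, whether replicates were separate cultures or whether the line was 1 clone. All values therefore describe 1 engineered line, and a p-value sets a difference against library-to-library spread, whose source (culture or handling) is unknown.

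The spliceosome removes introns while RNA is still being made. The U1 particle marks the start of the intron, the U2 auxiliary factor and the U2 particle mark its end and branch point, the U4/U6.U5 tri-snRNP then joins, and the PRP19 complex accompanies the activated enzyme. Sm proteins form a ring on the small nuclear RNA of most of these particles. The hnRNP proteins bind along the transcript and favour or block particular splice sites.

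Hypertonic libraries held 28367788 estimated reads (replicate 1) and 23048409 (replicate 2). Isotonic libraries held 44888307 (replicate 1) and 23410787 (replicate 2). CPM values below are read counts scaled to library size, with edgeR's TMM factors. A CPM is relative to the rest of its library, so a change in total nascent RNA is not seen, and fewer cells and less RNA per cell cannot be told apart in these bulk samples. Markers of mesenchymal and osteosarcoma cells summed over 8 genes to 44.4 and 36.0 RPKM, a level per length of gene, in hypertonic libraries and to 41.1 and 32.6 RPKM in isotonic libraries. The 8 markers of blood, epithelium, liver, endothelium and neural crest summed to 0.151 and 0.323 RPKM in hypertonic libraries and to 0.190 and 0.123 RPKM in isotonic libraries, and ALB, CD3E and SOX10 were at 0 in all 4. The hypertonic libraries differed from each other. Relative to the isotonic mean, the median member stood at -1.08 log2 units in hypertonic replicate 1 and at -0.32 in hypertonic replicate 2, and 43 of 50 members were lower in replicate 1. The comparison genes, 1871 other protein-coding genes of similar length and level, showed the same gap, with medians of -0.94 and -0.26 and with 76.4% lower in replicate 1. Results are therefore given library by library.

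Promoters of the members are shown first, because they are what each transcript starts from, and 4 of them follow. HNRNPA3 had the smallest p among members, HNRNPK had hypertonic libraries close to each other, SNRPB2 had the lowest log2 fold change and SF3A3 the highest; they were picked with these values known. Each line is a RefSeq window on GRCh38.p14 from 250 bases before to 50 bases after the annotated start, read 5′ to 3′ on the gene's strand. Capitals mark searched motifs on either strand. The windows are chr2:177212544-177212843 (plus strand) for HNRNPA3, chr9:83980566-83980865 (minus strand) for HNRNPK, chr20:16729776-16730075 (plus strand) for SNRPB2 and chr1:37989973-37990272 (minus strand) for SF3A3. The annotated start of SF3A3 lies 899 bases from the start in the deposited tables, against a median of 52.5 bases over the matched members.
HNRNPA3: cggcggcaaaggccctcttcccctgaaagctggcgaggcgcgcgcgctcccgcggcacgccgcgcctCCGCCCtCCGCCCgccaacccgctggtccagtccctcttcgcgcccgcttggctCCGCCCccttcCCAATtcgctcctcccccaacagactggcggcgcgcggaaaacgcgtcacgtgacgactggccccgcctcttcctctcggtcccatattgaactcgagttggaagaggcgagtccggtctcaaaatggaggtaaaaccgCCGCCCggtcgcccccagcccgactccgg
HNRNPK: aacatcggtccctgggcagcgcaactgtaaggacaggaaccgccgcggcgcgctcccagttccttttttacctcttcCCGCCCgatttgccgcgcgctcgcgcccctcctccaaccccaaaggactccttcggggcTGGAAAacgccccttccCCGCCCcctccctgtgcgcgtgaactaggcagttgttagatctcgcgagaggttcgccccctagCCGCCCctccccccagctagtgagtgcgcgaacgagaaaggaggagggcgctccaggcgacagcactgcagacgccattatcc
SNRPB2: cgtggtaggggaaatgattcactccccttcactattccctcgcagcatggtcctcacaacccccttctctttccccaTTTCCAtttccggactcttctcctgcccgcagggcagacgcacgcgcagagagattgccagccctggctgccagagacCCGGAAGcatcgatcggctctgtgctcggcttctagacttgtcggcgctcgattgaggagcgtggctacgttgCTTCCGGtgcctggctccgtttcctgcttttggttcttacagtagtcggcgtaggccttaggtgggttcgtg
SF3A3: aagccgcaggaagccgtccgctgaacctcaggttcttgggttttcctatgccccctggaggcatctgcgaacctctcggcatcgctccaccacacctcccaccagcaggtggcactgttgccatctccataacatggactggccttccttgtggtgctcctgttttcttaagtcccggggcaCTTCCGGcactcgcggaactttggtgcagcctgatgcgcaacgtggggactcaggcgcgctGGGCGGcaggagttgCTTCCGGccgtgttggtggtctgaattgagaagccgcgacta
The 4 windows differ in what they hold. HNRNPA3 has GC boxes (GGGCGG) and a CCAAT box, HNRNPK has GC boxes and 1 NFAT core (TGGAAA), SNRPB2 has the ETS core (CCGGAAG) on both strands and an NFAT core, and SF3A3 has the ETS core and a GC box. The ETS and NFAT words share the letters GGAA, and neither contains the other.

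Of the 50 members, 46 had a RefSeq window, and PRPF3, HNRNPA1, SNRPD1 and SF3B3 had none. The ETS core was in 17 of the 46 windows (37.0%), against 28.3% of 1499 windows of comparison genes and 10.3% of all 35116 windows. It occurred in windows of several particles, among them those of SNRPB, SNRPE, SNRPG, SNRPD2, SNRPC, SNRPA1, SF3A1, SF3A2, SF3B2, SF3B4 and U2AF2. The GC box was in 32 windows (69.6%), against 71.7% of comparison genes and 45.0% of all windows. CCAAT was in 21 (45.7%), against 41.6% and 34.6%. The YY1 core (ATGGCGG) was in 7 (15.2%), against 14.9% and 5.55%, the NFAT core in 9 (19.6%), against 14.1% and 20.7%, and TATAAA in 4 (8.70%), against 5.74% and 11.5%. Median GC content was 63.7% in members, 64.3% in comparison genes and 58.7% in all windows. The member promoters were thus close to those of comparison genes in GC content and in most of these words, and a match is a run of letters, not a bound site.

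Most members had lower values in hypertonic than in isotonic libraries, but no single gene passed the test. The median log2 fold change (hypertonic over isotonic) was -0.66, with quartiles of -0.94 and -0.18, and 45 of 50 members were negative. Among comparison genes the median was -0.50 and 78.7% were negative, while among all tested genes the median was 0.04 and 47.6% were negative. The comparison genes lie between the 10th and 90th percentile of the members in length and level, and most of the distance between the members and all genes was also seen in them. This depended on those bounds: with bounds at the lowest and highest member in length and level, 9170 protein-coding genes had a median of -0.0709 and 53.8% were negative. Under total count scaling, which raised the median of all genes to 0.26, 36 members were negative and the member median was -0.43. Relative to the median of all genes, the members stood at -0.70 with TMM and at -0.69 with total counts.

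In edgeR's quasi-likelihood test with Benjamini-Hochberg adjustment over all tested genes, 0 members and 0% of all 21238 genes passed an adjusted p of 0.05. The lowest adjusted p of a member was 0.261, for HNRNPA3. At an unadjusted p of 0.05, 7 members (14%) were lower, against 12.2% of comparison genes and 2.01% of all tested genes. At that p 0 members were higher, against 1.98% of comparison genes and 8.89% of all tested genes. The 7 were HNRNPA3, HNRNPK, HNRNPA1, HNRNPL, SNRPB, SNRPG and SNRPB2. Of these, HNRNPA1, HNRNPL and SNRPB rest on 62.1, 73.9 and 62.3% of their span. Among the 38 members that share no base with another gene on their strand, only 2 were lower at that p, SNRPG and SNRPB2. DESeq2 also passed 0 members, with 2.53% of 25763 genes passing, and limma on log2(RPKM + 0.1) passed 0.

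The groups did not overlap, with both hypertonic values below both isotonic ones, for 28 members (56%). This held for 45.3% of comparison genes and 17.5% of all tested genes, and for only 12 members under total count scaling. Both hypertonic values lay above both isotonic ones for 2 members (4%), SF3A3 and HNRNPUL1, against 6.15% of comparison genes and 22.5% of all tested genes. Hypertonic replicate 1 lay below both isotonic libraries for 45 members and hypertonic replicate 2 for 30. Replicate 2 lay above both isotonic libraries for 12 members and replicate 1 for 2. In comparison genes, replicate 1 lay below both for 77.8% and replicate 2 for 54.5%, and replicate 2 lay above both for 25.3%.

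Leaving out hypertonic replicate 2 changed the calls. With replicate 1 alone against both isotonic libraries, and assuming that it would vary as the isotonic libraries do, edgeR's quasi-likelihood test passed 31 members, all lower, where 10.3% of 22940 genes were lower and 47.0% of comparison genes were called lower. With hypertonic replicate 2 alone, 0 members passed. The calls therefore rest on a library that lay lower than its replicate for most members.

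**Figure D1:**
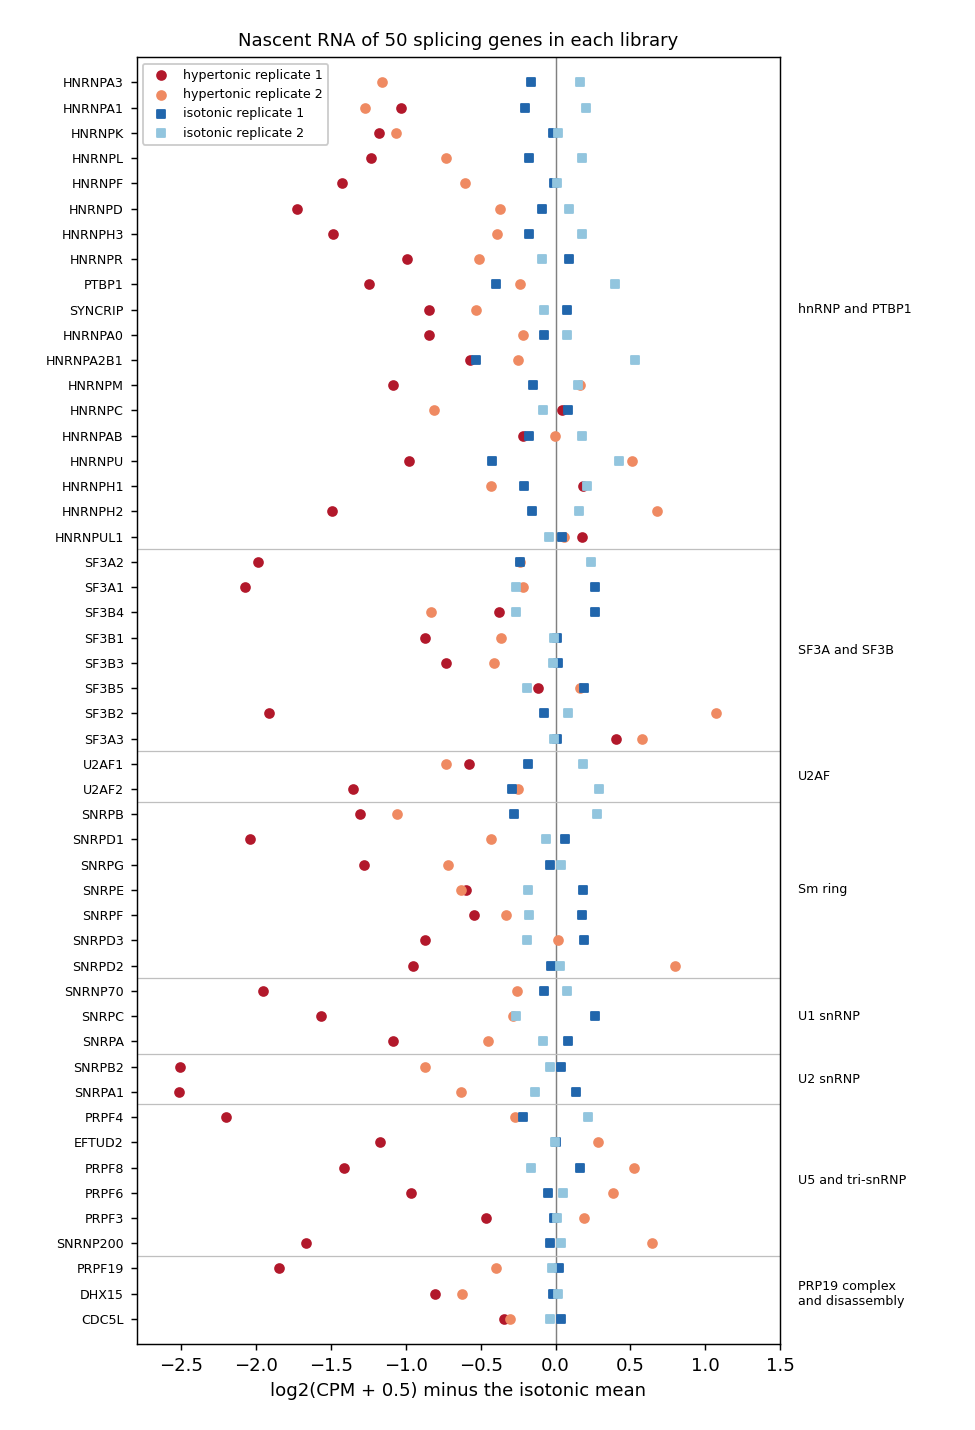
Each row is 1 of the 50 genes, grouped by particle or family, and each point is 1 library's log2(CPM + 0.5) minus the mean of the isotonic libraries (circles, hypertonic; squares, isotonic). Hypertonic replicate 1 is the lowest point in most rows, while hypertonic replicate 2 is above both isotonic squares for 12 genes.

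The hnRNP family and PTBP1, 19 genes, are treated first because they bind the transcript as it emerges. Their summed level was 3247 and 4027 CPM in hypertonic libraries and 4637 and 5970 CPM in isotonic libraries. The hypertonic sums were both lower, and an exact two-sided permutation test gave p = 0.33, the smallest that 2 against 2 libraries allow. The median log2 fold change was -0.68, 18 of 19 were negative, or 14 under total count scaling, and 10 had groups that did not overlap.

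HNRNPA3 (chr2:177212563-177223958, plus strand), an A/B-type hnRNP, had 59.0 and 82.5 CPM in hypertonic libraries, against 165 and 207 CPM in isotonic libraries. Both hypertonic values were under the lower isotonic one, and the log2 fold change was -1.39 ± 0.40 (SE, n = 2 each). Of the comparison genes, 3.37% had a lower log2 fold change than HNRNPA3. HNRNPK (chr9:83968083-83980604, minus strand), which binds runs of C through its KH domains, had 117 and 126 CPM in hypertonic libraries, against 263 and 268 CPM in isotonic libraries. Here the libraries of each group were close to each other, and the log2 fold change was -1.13 ± 0.38, lower than in all but 11.3% of comparison genes. HNRNPA1 (chr12:54280193-54287087, plus strand), which binds splicing silencers, had 51.7 and 43.8 CPM in hypertonic libraries, against 92.4 and 122 CPM in isotonic libraries, a log2 fold change of -1.17 ± 0.40. By edgeR's quasi-likelihood test with Benjamini-Hochberg adjustment these 3 genes had adjusted p-values of 0.261 for HNRNPA3, 0.320 for HNRNPK and 0.335 for HNRNPA1. They were also among the members with hypertonic replicate 2 lowest: relative to the isotonic mean, replicate 2 stood at -1.16 for HNRNPA3, -1.07 for HNRNPK and -1.27 for HNRNPA1.

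HNRNPA1 carries a limit of counting. Only 62.1% of its span was counted, because a neighbouring annotation overlaps it on the same strand, and 76 annotated copies resemble it in name. Those copies held 18.7 and 18.1% of the reads of HNRNPA1 and its copies in hypertonic libraries, and 6.90 and 6.17% in isotonic libraries. How reads were divided between HNRNPA1 and its copies was not tested. For HNRNPA3, with 16 copies, that share was 1.59 and 1.99% in hypertonic libraries and 0.430 and 0.469% in isotonic libraries.

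The most abundant members were also hnRNP genes. On the per-length scale, HNRNPA2B1 (chr7:26189927-26200793, minus strand), which binds RNA through the same kind of paired domains as HNRNPA1, stood at 51.6 and 89.4 RPKM in hypertonic libraries, against 64.0 and 122 RPKM in isotonic libraries. Its isotonic libraries differed by 1.06 log2 units, the only member with an isotonic gap above 1, and its groups overlapped, with a log2 fold change of -0.50 ± 0.49. HNRNPU (chr1:244850297-244864560, minus strand), also called scaffold attachment factor A, had 171 and 482 CPM in hypertonic libraries and 252 and 454 CPM in isotonic libraries. The hypertonic values enclosed the isotonic ones, and the log2 fold change was -0.11 ± 0.55. HNRNPH1 (chr5:179614178-179624669, minus strand), which binds runs of G, had 287 and 188 CPM in hypertonic libraries and 218 and 293 CPM in isotonic libraries, a log2 fold change of -0.11 ± 0.41. It was lower in hypertonic replicate 2 than in replicate 1, the reverse of most members. Its X-linked relative HNRNPH2 (chrX:101408295-101414133, plus strand) had 4.22 and 20.7 CPM in hypertonic libraries and 11.4 and 14.3 CPM in isotonic libraries, again with the isotonic values enclosed, and only 31.9% of its span was counted. HNRNPU, HNRNPH1, HNRNPH2 and HNRNPAB changed sign under total count scaling.

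The other members of the family were spread over the same range. HNRNPL, which binds CA repeats, stood at -0.98 ± 0.42 log2 units and HNRNPF, a G-run binder, at -0.96 ± 0.42. HNRNPD, a binder of AU-rich elements, stood at -0.90 ± 0.50, HNRNPH3 at -0.85 ± 0.46, HNRNPR at -0.74 ± 0.40 and its close relative SYNCRIP at -0.68 ± 0.38. These 6 genes had both hypertonic values below both isotonic ones, as did HNRNPA0 at -0.51 ± 0.51. PTBP1 (chr19:797075-812327, plus strand), which binds pyrimidine tracts and represses exons, had 15.7 and 32.0 CPM in hypertonic libraries and 28.7 and 49.95 CPM in isotonic libraries, with overlapping groups. HNRNPM, HNRNPC and HNRNPAB stood at -0.34 ± 0.48, -0.32 ± 0.45 and -0.12 ± 0.43. HNRNPC, which binds runs of U, had 715 and 394 CPM in hypertonic libraries and 735 and 653 CPM in isotonic libraries, so that here replicate 2 was the low one. HNRNPUL1, related to HNRNPU, had 174 and 160 CPM in hypertonic libraries and 159 and 150 CPM in isotonic libraries, a log2 fold change of 0.11 ± 0.37.

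**Figure D2:**
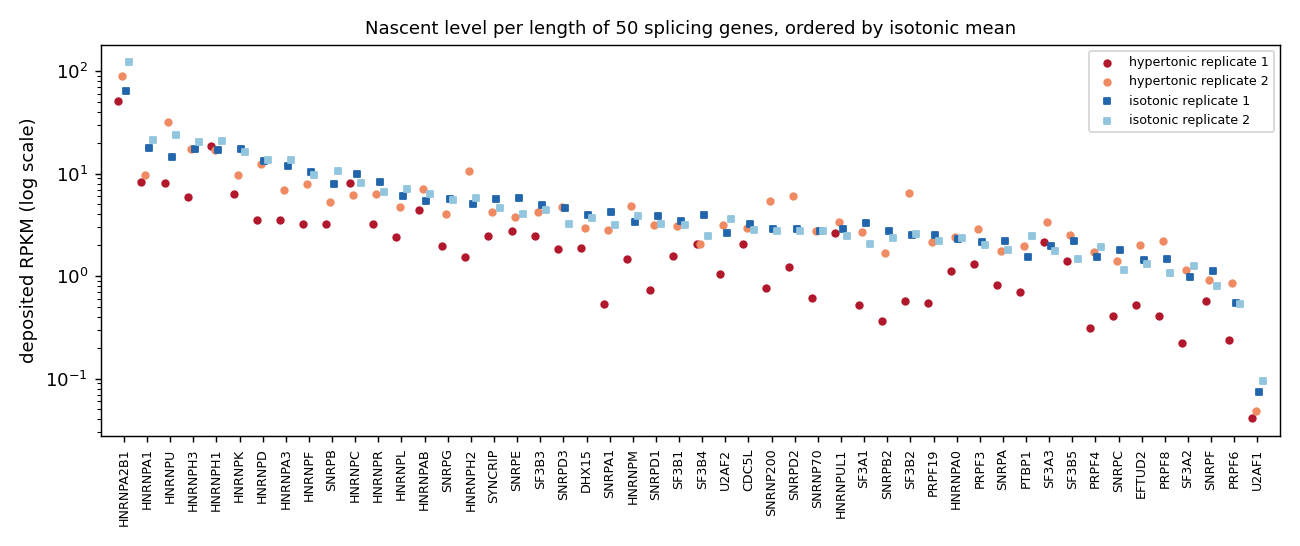
Deposited RPKM of the 50 genes on a log scale, 1 point per library, ordered from left by the mean of the isotonic libraries. HNRNPA2B1 stands at 51.6 to 122 RPKM, above every other gene, and U2AF1 is lowest in all 4 libraries.

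Levels per length spanned a wide range. The isotonic mean was 92.8 RPKM for HNRNPA2B1, followed by 19.5 for HNRNPA1, 19.1 for HNRNPU, 19.0 for HNRNPH3, 18.9 for HNRNPH1 and 16.7 for HNRNPK. Each of the 5 genes after HNRNPA2B1 had isotonic values that overlapped with those of its neighbour in this order, so neighbours do not differ beyond their spread. The middle of the list held most of the spliceosome, with SF3B1, the large subunit that clamps the branch point, at 3.31 RPKM and SNRNP200, a helicase, at 2.84 RPKM. U2AF1 was last, at 0.0844 RPKM.

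The U1 particle proteins recognise the donor site. Their 3 genes summed to 47.7 and 120 CPM in hypertonic libraries and to 153 and 146 CPM in isotonic libraries (exact two-sided permutation p = 0.33, the smallest possible). All 3 had both hypertonic values below both isotonic ones. SNRNP70 (chr19:49085423-49108563, plus strand), the U1 70K protein, had 20.6 and 68.2 CPM in hypertonic libraries, against 77.2 and 86.1 CPM in isotonic libraries, a log2 fold change of -0.88 ± 0.56. SNRPA (chr19:40750859-40765389, plus strand), the U1 A protein, had 17.3 and 27.2 CPM in hypertonic libraries, against 39.5 and 35.2 CPM in isotonic libraries, a log2 fold change of -0.75 ± 0.49. SNRPC, the U1 C protein, stood at -0.83 ± 0.59. In all 3 genes hypertonic replicate 1 was the lowest library and replicate 2 lay below both isotonic libraries.

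The Sm ring is shared by the U1, U2, U4 and U5 particles. Its 7 genes summed to 241 and 400.3 CPM in hypertonic libraries and to 535 and 495 CPM in isotonic libraries (exact two-sided permutation p = 0.33), the median log2 fold change was -0.64, 6 were negative and 5 did not overlap. SNRPB (chr20:2461634-2470853, minus strand), which encodes the Sm proteins B and B′, had 27.1 and 32.3 CPM in hypertonic libraries, against 55.9 and 82.4 CPM in isotonic libraries. Its log2 fold change was -1.22 ± 0.44 with an adjusted p of 0.359 by edgeR's quasi-likelihood test with Benjamini-Hochberg adjustment, and 62.3% of its span was counted. SNRPG (chr2:70281362-70293771, minus strand), the Sm protein G, had 36.2 and 53.7 CPM in hypertonic libraries, against 86.2 and 91.0 CPM in isotonic libraries, a log2 fold change of -0.98 ± 0.42. SNRPD1 stood at -1.03 ± 0.54, SNRPE at -0.64 ± 0.43, SNRPF at -0.45 ± 0.43 and SNRPD3 at -0.37 ± 0.44. SNRPD2 (chr19:45687454-45692333, minus strand), the Sm protein D2, had 8.87 and 31.0 CPM in hypertonic libraries and 17.3 and 18.0 CPM in isotonic libraries. Its hypertonic values enclosed the isotonic ones, so the log2 fold change of 0.18 ± 0.65 has no settled sign, and it was negative under the replicate block, with limma and without hypertonic replicate 2.

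The pair of U2AF genes encodes the factor that reads the end of the intron. U2AF2 (chr19:55654146-55674715, plus strand), which binds the pyrimidine tract, had 29.4 and 63.7 CPM in hypertonic libraries and 62.0 and 92.7 CPM in isotonic libraries, an overlap of the groups, with a log2 fold change of -0.73 ± 0.50. U2AF1 (chr21:43092956-43107587, minus strand), which reads the terminal AG, had only 21 and 19 reads in hypertonic libraries and 54 and 36 reads in isotonic libraries. GRCh38 holds a near-identical copy, U2AF1L5 (chr21:6484623-6499256, minus strand), which had 48 and 98 reads in hypertonic libraries and 189 and 131 reads in isotonic libraries. U2AF1 and U2AF1L5 together came to 2.91 and 4.60 CPM in hypertonic libraries, against 5.96 and 8.62 CPM in isotonic libraries. Reads of the pair could be split between them by the counting, so the level of U2AF1 alone is uncertain.

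Among the groups of members, the genes for U2 A′ and B″ had the lowest sum relative to isotonic libraries. This does not extend to the SF3A and SF3B genes, whose ratio was 0.766. The U2 A′ and B″ genes summed to 17.6 and 63.5 CPM in hypertonic libraries and to 113 and 98.4 CPM in isotonic libraries, a ratio of 0.385 (exact two-sided permutation p = 0.33). SNRPB2 (chr20:16729961-16742563, plus strand), the U2 B″ protein that binds a loop of U2 RNA, had 6.80 and 22.3 CPM in hypertonic libraries, against 42.2 and 40.1 CPM in isotonic libraries. SNRPA1 (chr15:101281510-101295255, minus strand), its partner U2 A′, had 10.8 and 41.3 CPM in hypertonic libraries, against 70.4 and 58.3 CPM in isotonic libraries. Both hypertonic values were lower in each gene, but the hypertonic libraries differed by 1.64 log2 units for SNRPB2 and by 1.88 for SNRPA1. The log2 fold changes were -1.50 ± 0.62 for SNRPB2 and -1.31 ± 0.62 for SNRPA1, with adjusted p-values of 0.424 and 0.504 by edgeR's quasi-likelihood test with Benjamini-Hochberg adjustment. Of the comparison genes, 2.19% lay lower than SNRPB2 and 5.34% lower than SNRPA1.

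The SF3A and SF3B complexes bring the U2 particle to the branch point, and their 8 genes were mixed in sign. They summed to 460 and 727 CPM in hypertonic libraries and to 794 and 755 CPM in isotonic libraries (exact two-sided permutation p = 0.33); 5 were negative, and for 3 both hypertonic values lay below both isotonic ones. SF3B1 (chr2:197389784-197435091, minus strand) had 105 and 149 CPM in hypertonic libraries, against 193 and 190 CPM in isotonic libraries, a log2 fold change of -0.60 ± 0.39. SF3B3 (chr16:70523788-70577668, plus strand), a scaffold subunit, had 194 and 243 CPM in hypertonic libraries, against 327 and 319 CPM in isotonic libraries, a log2 fold change of -0.56 ± 0.39. SF3A1 (chr22:30331988-30356947, minus strand), a subunit of SF3A, had 19.3 and 71.2 CPM in hypertonic libraries and 99.6 and 69.0 CPM in isotonic libraries, so that only hypertonic replicate 1 lay outside the isotonic range. SF3A2 and SF3B4 stood at -0.91 ± 0.70 and -0.63 ± 0.54, and SF3B5, a short gene with under 2 CPM in every library, at 0.02 ± 0.72.

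SF3A3 and SF3B2 show the difference between a steady and an unsteady positive value. SF3A3 (chr1:37956975-37990921, minus strand), a subunit of SF3A, had 107 and 121 CPM in hypertonic libraries, against 81.7 and 80.4 CPM in isotonic libraries. Both hypertonic values were higher, and the log2 fold change was 0.50 ± 0.38 with an adjusted p of 0.765 by edgeR's quasi-likelihood test with Benjamini-Hochberg adjustment. Of the comparison genes, 91.98% lay lower than SF3A3, and its sign was positive under every scaling tried. SF3B2 (chr11:66052331-66069308, plus strand), a subunit of SF3B, had 14.1 and 116 CPM in hypertonic libraries and 51.8 and 58.0 CPM in isotonic libraries. The hypertonic libraries differed by 2.99 log2 units, the widest gap among members. Its log2 fold change was 0.24 ± 0.77 over both libraries and -1.96 without hypertonic replicate 2. Its direction therefore depends on which library is read.

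The U5 and tri-snRNP genes, 6 in all, form the particle that delivers the catalytic core. They summed to 182 and 540 CPM in hypertonic libraries and to 412 and 420.2 CPM in isotonic libraries, with the isotonic sums between the hypertonic ones (exact two-sided permutation p = 1). The median log2 fold change was -0.15, but 0.16 with total counts, 0.02 with upper-quartile factors and 0.30 if hypertonic replicate 1 was left out. SNRNP200 (chr2:96274336-96305515, minus strand), the helicase that unwinds U4 from U6, had 35.4 and 178 CPM in hypertonic libraries and 110 and 116 CPM in isotonic libraries. EFTUD2 (chr17:44849943-44899662, minus strand), the GTPase of the U5 particle, had 38.4 and 106 CPM in hypertonic libraries and 87.5 and 86.9 CPM in isotonic libraries. In both genes the hypertonic values lay on either side of the isotonic ones. PRPF4 (chr9:113275343-113292905, plus strand), a U4/U6 protein, was the only one of the 6 whose groups did not overlap, with 7.98 and 31.8 CPM in hypertonic libraries, against 33.0 and 44.9 CPM in isotonic libraries. PRPF8, the scaffold at the catalytic centre, PRPF6, which bridges U5 and U4/U6, and PRPF3, a U4/U6 protein, stood at -0.15 ± 0.61, -0.14 ± 0.55 and -0.10 ± 0.41, and SNRNP200 and EFTUD2 at -0.09 ± 0.64 and -0.27 ± 0.51.

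PRPF19, CDC5L and DHX15 act late, in activation and disassembly. They summed to 361 and 411 CPM in hypertonic libraries and to 569 and 562 CPM in isotonic libraries (exact two-sided permutation p = 0.33), and none of the 3 overlapped. DHX15 (chr4:24527475-24584550, minus strand), the helicase that takes the spent spliceosome apart, had 158 and 180 CPM in hypertonic libraries, against 273 and 280.4 CPM in isotonic libraries, a log2 fold change of -0.71 ± 0.38. PRPF19 (chr11:60890730-60906588, minus strand), the ubiquitin ligase of the PRP19 complex, had 12.9 and 36.1 CPM in hypertonic libraries, against 48.6 and 46.9 CPM in isotonic libraries, a log2 fold change of -0.96 ± 0.56. CDC5L, a core protein of the same complex, stood at -0.32 ± 0.37, with close libraries in each group.

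**Figure D3:**
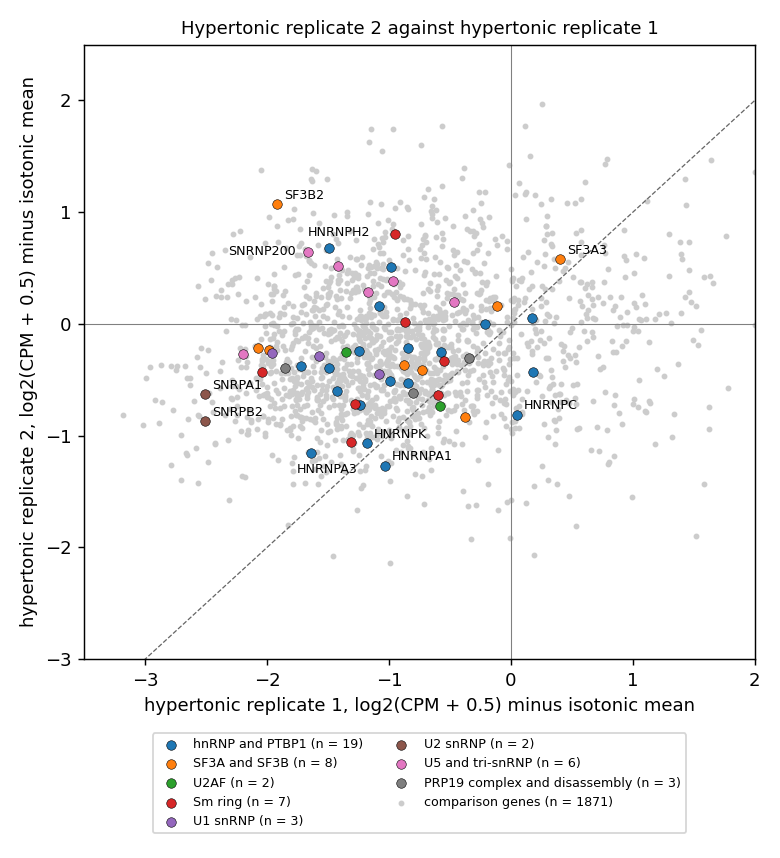
For each gene, log2(CPM + 0.5) minus the isotonic mean in hypertonic replicate 1 (x axis) and in hypertonic replicate 2 (y axis), with members coloured by role, comparison genes in grey and equal values on the dashed line. Most members sit above the dashed line within the grey cloud, SF3B2 lies 2.99 log2 units apart between the libraries, and 39 comparison genes fall outside the axes.

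Members and comparison genes differed between the hypertonic libraries to a like extent. The gap exceeded 1 log2 unit in 22 members (44%) and in 43.1% of comparison genes, while between isotonic libraries it exceeded 1 in 1 member. Genes with the widest gaps after SF3B2 were SNRNP200 at 2.31 and HNRNPH2 at 2.17 log2 units. DHX15, CDC5L, HNRNPK and SNRPE were examples with gaps of 0.18 or less.

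Length divided the members unevenly. The 25 members of 10 to 30 kb had a median log2 fold change of -0.90, with 24 negative, against -0.51 in 956 comparison genes of that length. The 16 members over 30 kb had a median of -0.32, against -0.51 in 578 comparison genes. The 9 members under 10 kb stood at -0.51, against -0.42 in 337 comparison genes. Spearman's rho between length and log2 fold change was 0.22 over the 50 members, as a description across genes that share 4 libraries. Members that share no base with another gene on their strand, 38 in number, had a median of -0.56.

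The rest of the splicing machinery lay near the comparison genes, whose median log2 fold change was -0.50 with 78.7% negative. A list of 80 other splicing genes held, among others, further SF3B, Sm-like, PRP19-complex and exon junction proteins. Some of them, such as PHF5A and LUC7L, were also among the comparison genes, which leave out only the 50 members. The 79 tested genes of this list had a median log2 fold change of -0.45, with 65 negative (82.3%) and 14 positive. By edgeR's quasi-likelihood test with Benjamini-Hochberg adjustment 0 passed. At an unadjusted p of 0.05, 6 of these 79 were lower, a share between 12.2% of comparison genes and 2.01% of all tested genes. Only 1 was higher, against 1.98% of comparison genes and 8.89% of all tested genes. PHF5A, a small SF3B subunit, had 5.32 and 16.1 CPM in hypertonic libraries, against 40.0 and 33.1 CPM in isotonic libraries, a log2 fold change of -1.77 ± 0.63. SMNDC1, a splicing factor with a Tudor domain, stood at -1.39 ± 0.55, and the Sm-like genes LSM8 and LSM3, whose products bind U6 RNA, at -1.39 ± 0.55 and -1.21 ± 0.48. EIF4A3, the helicase of the exon junction complex, had 190 and 60.0 CPM in hypertonic libraries, against 40.5 and 49.5 CPM in isotonic libraries, a log2 fold change of 1.47 ± 0.55 with most of it in hypertonic replicate 1. SYF2, a protein related to the PRP19 complex, had 34.5 and 32.5 CPM in hypertonic libraries, against 17.4 and 18.4 CPM in isotonic libraries, so both hypertonic libraries were higher. PRPF31, a tri-snRNP protein, had 8.49 and 36.6 CPM in hypertonic libraries and 14.3 and 17.0 CPM in isotonic libraries, enclosing the isotonic values.

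Members often share a start region with a gene on the other strand. An opposite-strand start lay within 1 kb of the member's start, on either side, for 16 members (32%), against 29.7% of comparison genes. Of the 16 partners, 11 were protein-coding, and 8 of these (72.7%) had negative log2 fold changes. This compares with 78.7% of comparison genes and 53.6% of all tested protein-coding genes. All 5 other partners, which were not protein-coding, were positive. Of all 21238 tested genes 11133 were positive, but only 6742 of the 14523 protein-coding ones. The share positive was thus higher among genes that do not code for protein, the kind these 5 partners belong to. AL034428.1, the partner of SNRPB2, had an isotonic mean of only 0.00603 RPKM. RMI1, 194 bases from HNRNPK, had 16.9 and 29.1 CPM in hypertonic libraries, against 45.9 and 32.0 CPM in isotonic libraries, a log2 fold change of -0.76 ± 0.51. CBX5, 91 bases from HNRNPA1, had 115 and 194 CPM in hypertonic libraries and 148 and 136 CPM in isotonic libraries, so it did not lie low beside HNRNPA1. CBX3, which codes for a heterochromatin protein and starts 369 bases from HNRNPA2B1, had 71.1 and 144 CPM in hypertonic libraries and 200 and 137 CPM in isotonic libraries. A tested gene on the same strand ended within 10 kb upstream of 10 members, and for 0 of them was that gene at 4 times the member's level or more. HNRNPUL1 and SF3A3 were among the 10, and all the others had negative log2 fold changes. AXL ends 730 bases upstream of HNRNPUL1, with an isotonic mean of 3.04 RPKM against 2.68 RPKM. FHL3 ends 5849 bases upstream of SF3A3, with 1.02 RPKM against 1.87 RPKM. The part of such neighbours in the members' values was not tested.

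Reads on the strand opposite to the members were few but made up a larger share in hypertonic libraries. Summed over the 50 members they were 1.08 and 0.393% of both strands in hypertonic libraries and 0.163 and 0.161% in isotonic libraries (exact two-sided permutation p = 0.33, the smallest possible). The same direction held for comparison genes, at 6.48 and 2.39% in hypertonic and 1.37 and 1.38% in isotonic libraries, and for all tested genes, at 7.16 and 4.99% in hypertonic and 2.60 and 2.74% in isotonic libraries. The share was higher in both hypertonic libraries for 17 of 50 members. It was so for 35.8% of 20011 tested genes with an opposite-strand entry, so the members were near the share over all genes. It was lower in both for 2 members, SF3A3 and SNRPC, on few reads. SNRPC had 0 and 0 such reads in hypertonic libraries and 1 and 2 in isotonic libraries. Without the 3 members with most such reads, HNRNPH3, SNRNP200 and HNRNPUL1, the shares were 0.429 and 0.224% in hypertonic and 0.0903 and 0.0881% in isotonic libraries.

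A few members held many of these reads. Without HNRNPH3, SNRNP200 and HNRNPUL1 the share was still higher in both hypertonic libraries. SNRNP200 had 22.1 and 2.86% of its reads on the opposite strand in hypertonic libraries, against 0.684 and 0.617% in isotonic libraries, and CIAO1 ends 2691 bases beyond its end on that strand. HNRNPH3 had 15.3 and 2.40% in hypertonic libraries, against 1.59 and 1.505% in isotonic libraries, with the end of RUFY2 at 332 bases. SNRPD1 had 20.5 and 0.607% in hypertonic libraries, against 0.171 and 0.504% in isotonic libraries. In these 3 genes hypertonic replicate 1 was the high library, and in it their sense level was also low, so a share rises with fewer sense reads as well as with more opposite-strand reads. The opposite-strand reads themselves numbered 237 and 133 in hypertonic libraries and 31 and 14 in isotonic libraries for SNRNP200, and 410 and 128 in hypertonic libraries and 157 and 90 in isotonic libraries for HNRNPH3. Per the labels, actinomycin D was added during cDNA synthesis, to keep strand, in certain samples that they do not name, so whether every library kept strand alike is not stated. The part of this in the shares and in the sense counts was not tested.

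**Figure D4:**
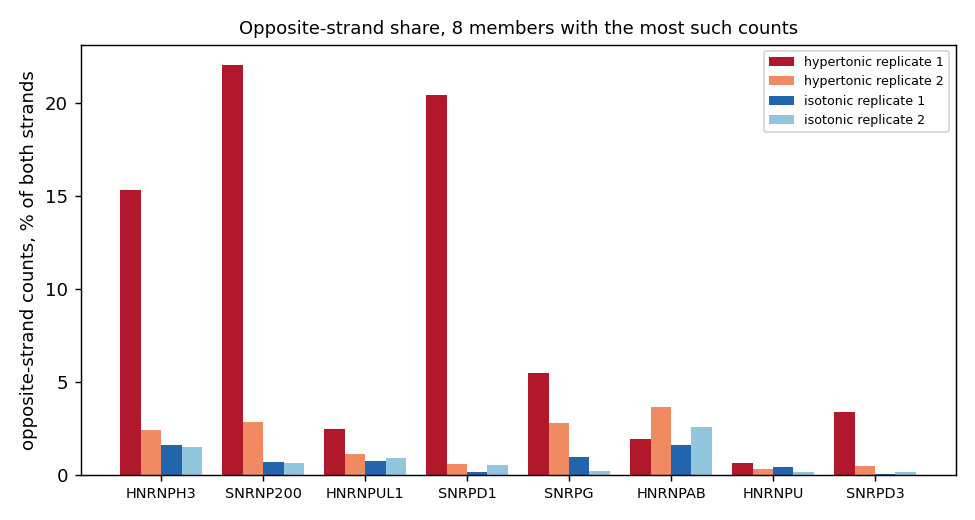
Opposite-strand reads as a percentage of the reads on both strands for the 8 members with the most such reads, 1 bar per library. SNRNP200, SNRPD1 and HNRNPH3 reach 22.1, 20.5 and 15.3% in hypertonic replicate 1 and are under 3% in the other 3 libraries.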

How the data were processed

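Tools listed in the submitters' processing notes are STAR 2.5.3a, Bowtie2 2.3.3, bedtools 2.16.2 and CASAVA 1.8.2, on GRCh38 (hg38); the role of each and the annotation release are not given in the sources used here. The authors deposited an expected count and an RPKM per gene and strand; the tables have no header, and these meanings were read from the values. Between 73.9 and 79.6% of values under 50 lay within 0.01 of a whole number. Entries for regions shared by overlapping genes, with 3.11 to 3.48% of counts, were left out, so some genes rest on part of their span. Counts are of reads, with no molecular identifiers named. Coordinates are those of the deposited tables, counted from 1; strand and gene type came from GENCODE release 29.

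Expected counts of sense entries were rounded and fitted over the whole table with edgeR 4.0.16 in R 4.3.3 (TMM factors of 0.947 and 1.22 for hypertonic and 0.974 and 0.887 for isotonic libraries, default expression filter, quasi-likelihood test, Benjamini-Hochberg adjustment). The standard error is the log2 fold change divided by the square root of F. Comparison genes were tested protein-coding genes whose length (5672 to 49945 bases) and mean RPKM (1.28 to 12.5) lay between the 10th and 90th percentile of the members. Alternatives used DESeq2 1.42.0, limma 3.58.1, other scalings, no filter, each library left out and the replicate block. The main fit did not pair libraries by replicate number. Deviations of same-numbered libraries correlated at 0.039 over all genes, which cannot show whether those libraries were made together. Members named with values in every library were the smallest p-values per role, the highest levels, the largest positive changes, the widest replicate gaps and 3 paralogue pairs; HNRNPC, HNRNPUL1 and the neighbouring genes were added after their values were seen. The members and lists were chosen with earlier results of these data known. The edgeR script was tested on simulated data. Figures used matplotlib 3.10.9.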

Additional observations from a re-analysis of the deposited data

How the results depend on the processing

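No member passed the threshold, and 45 of 50 were negative, under the main settings; DESeq2, RLE factors, total count and upper-quartile scaling, no filter, the replicate block and limma on log2(RPKM + 0.1) also passed 0 members, with medians of -0.73 to -0.43. Over all genes they passed different numbers: 652 with DESeq2 (629 higher), 916 without the filter (869 higher) and 384 with the replicate block (380 higher), against 0. With the replicate block the member median was -0.66, and the block changed no call of a member. Total count scaling left 12 members with both hypertonic values below both isotonic ones, against 28, and gave 9 members the other sign; upper-quartile scaling did so for 8. The all-gene median was 0.26 and 0.23 under these scalings, against 0.04 with TMM, and which scaling is nearer the true levels was not tested. Leaving out each library in turn gave 0 to 31 members passing, medians of -1.11 to -0.38, 37 to 46 negative and 31 to 45 not overlapping. Other splicing genes gave 0 to 38 passing and medians of -1.08 to -0.31, and comparison genes medians of -0.97 to -0.31. In each case the extreme with most calls and the lowest median was the one without hypertonic replicate 2, and the highest median the one without hypertonic replicate 1. Without hypertonic replicate 2, calls were also common among comparison genes, as given above, so these calls are not read as particular to splicing genes. With a single library left in a group, groups are separate more easily, so the non-overlap counts of these fits cannot be compared with the main 28. For SF3B2, hypertonic replicate 1 alone gave -1.96 and hypertonic replicate 2 alone gave 1.04; the cause was not tested. Comparison genes bounded by the lowest and highest member had a median of -0.0709; this widened length and level at once, and the cause was not tested. The comparison genes under each alternative and the opposite-strand share without 3 members were chosen after seeing the data. Depth limits U2AF1 and SF3B5, which had under 2 CPM in every library.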
